A study of Mus musculus with 8 samples.

Results

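A set of 10 genes that Min6 cells express above a set minimum and that stood slightly lower after transfection with Zac1 is described here. They are Tmsb10, BC053749, Fut10, 1190002F15Rik, N6amt2, Timm8b, Zfp764, Ubb, Rnf26 and Tmem98. They were chosen by the measured values themselves. A gene was taken when its mean level was at least 10 CPM (counts scaled to a library total of 1e6), when every Zac1 library lay below every control library, and when the mean Zac1 CPM was at most 0.9 times the mean control CPM. Symbols that start with Rpl, Rps, Nduf, Uqcr, Cox or Atp5 were left out. These prefixes cover ribosomal proteins and subunits of the respiratory chain and ATP synthase. They were matched by letters alone, so other genes whose symbols begin in the same way were left out too. Of 23100 genes in the table, 9120 met the conditions on level and symbol, and 10 of these met the rest (0.110%). Because the contrast between the groups picked the genes, their difference between the groups is given below as a description. Where the fit across all genes also covers them, their calls in this contrast follow in part from the choice and support nothing.

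Min6 is a mouse insulinoma line that keeps many traits of pancreatic beta cells. The cells received the plasmid pRK5-Zac1, or pRK5-NLSeGFP as control, which encodes a green fluorescent protein with a nuclear localisation signal, and both groups went through the same Lipofectamine procedure. RNA was taken 16 h later, and 4 libraries per group, numbered 1, 2, 3 and 5 in both, gave total counts of 30.5 to 35 M in the controls and 34.7 to 42.4 M with Zac1. The series calls them biological replicates, without saying which cultures they came from, so the spread between libraries may be in part technical. The share of cells that took up a plasmid is not given in the sources used here, and each value is an average over transfected and untransfected cells of 1 line, in which fewer expressing cells and less RNA per cell cannot be told apart. Plagl1, the gene that encodes Zac1, stood at 77.2 ± 7.16 CPM (SD, n = 4) in the controls and 4660 ± 779 CPM (SD, n = 4) with the Zac1 plasmid. All 8 beta cell markers examined had counts, with Ins2 at 30600 to 45300 CPM. The alpha cell hormone Gcg was also present, at 1220 to 2120 CPM. Of the 4 acinar markers examined, Amy2a5 and Prss2 had 0 counts in every library and Cpa1 had at most 2. The remaining acinar marker, Cela1, had low counts in every library, at 0.835 to 1.33 CPM.

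Zac1 is a zinc finger transcription factor that binds GC-rich DNA elements and is known for arresting the cell cycle and promoting apoptosis. The lowered genes do not form 1 known pathway. Ubb and Rnf26 belong to the ubiquitin system, in which a small protein is attached to others to mark them for breakdown or to change their fate. Tmsb10 binds actin monomers, Timm8b escorts membrane proteins across the space between the mitochondrial membranes, and N6amt2, now named Eef1akmt1, methylates the translation elongation factor eEF1A. Zfp764 is a zinc finger protein, Fut10 belongs to the fucosyltransferase family, and Tmem98 is a membrane protein that binds the transcription factor Myrf. 1190002F15Rik is the long noncoding RNA now named Lockd, which lies next to the cell cycle inhibitor gene Cdkn1b. BC053749 is now named Proser3. These last 2 have clone-type symbols, which the naming rule passes over, and they are named because every member is accounted for.

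The promoters of 3 members are shown because they stand for the most strongly lowered gene (Tmsb10), the most abundant one (Ubb) and the one with the shortest transcript (Timm8b). Each runs from 250 bases before to 50 bases after the first listed start, 5′ to 3′, from RefSeq on GRCm38.p6, a later build than the mm9 on which the reads were counted. Tmsb10 lies at chr6:72958699-72958998 on the minus strand, Timm8b at chr9:50603651-50603950 on the plus strand and Ubb at chr11:62550921-62551220 on the plus strand. Capitals mark matches to any of 9 motifs on either strand.
Tmsb10 promoter: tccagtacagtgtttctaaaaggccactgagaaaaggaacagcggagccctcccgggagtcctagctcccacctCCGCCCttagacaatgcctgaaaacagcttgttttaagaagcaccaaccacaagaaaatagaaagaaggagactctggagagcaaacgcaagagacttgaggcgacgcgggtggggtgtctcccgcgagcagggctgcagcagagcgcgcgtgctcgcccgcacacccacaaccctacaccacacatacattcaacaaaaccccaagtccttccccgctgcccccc
Timm8b promoter: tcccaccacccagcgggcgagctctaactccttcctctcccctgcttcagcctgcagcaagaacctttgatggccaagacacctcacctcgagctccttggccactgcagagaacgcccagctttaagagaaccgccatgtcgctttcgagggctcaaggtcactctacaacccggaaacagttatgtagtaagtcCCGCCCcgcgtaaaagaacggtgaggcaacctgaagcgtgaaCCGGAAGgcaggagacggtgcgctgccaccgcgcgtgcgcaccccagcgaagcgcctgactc
Ubb promoter: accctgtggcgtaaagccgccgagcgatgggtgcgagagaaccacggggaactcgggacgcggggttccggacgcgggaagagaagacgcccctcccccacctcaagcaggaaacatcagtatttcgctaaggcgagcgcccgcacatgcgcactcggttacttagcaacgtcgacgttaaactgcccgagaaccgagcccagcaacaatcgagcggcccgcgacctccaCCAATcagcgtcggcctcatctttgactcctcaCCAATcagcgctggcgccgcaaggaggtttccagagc

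The capitals above are a GC box (GGGCGG) in Tmsb10, a GC box and an ETS family site (CCGGAAG) in Timm8b, and 2 CCAAT boxes (CCAAT) in Ubb. A promoter entry was found for 8 of the 10 members, by gene ID. Neither Fut10 nor N6amt2 had one. The GC box was found in 5 of the 8, against 68.9% of the 7399 promoters of genes open to the rule and 35.9% of all 27025 promoters in the table. CCAAT was found in 4 of the 8, against 40% and 37.9%. The palindrome GGGGCCCC, an element that Zac1 has been reported to bind, was found in 0 of the 8, against 1.41% and 1.06%, and its part GGGGCC in Tmem98 alone, against 37.7% and 24.8%. The TATA box (TATAAA), the cAMP response element (TGACGTCA) and the AP-1 site (TGACTCA) were found in 0 of the 8. These shares were 5.97%, 3.7% and 2.87% of the promoters of genes open to the rule, and 14.2%, 1.88% and 5.17% of all promoters. The E box (CACGTG) was present in Tmem98 alone, against 11% and 7.24%, and the ETS site in Timm8b alone, against 21% and 9.12%. The median GC content of the 8 promoters was 57.0%, against 62.0% for genes open to the rule, and the median number of CpG dinucleotides was 19.5 against 23.

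Among the ubiquitin genes, Ubb, a stress-inducible polyubiquitin gene (Entrez 22187), was the most abundant member. Its control libraries held 483.7, 490.7, 470.2 and 491.8 CPM (replicates 1, 2, 3 and 5) and its Zac1 libraries 448.7, 463, 455.8 and 367.4 CPM. Zac1 libraries 1, 2 and 3 lay just under the lowest control, and library 5 lay far under all others. The means were 484.1 ± 9.92 and 433.7 ± 44.6 CPM (SD, n = 4), a ratio of 0.896. Rps27a, which encodes ubiquitin fused to a ribosomal protein and was chosen after the members were known, had overlapping groups and a ratio of 0.971 (edgeR adjusted p = 0.879). Ubiquitin coding sequence is nearly identical between ubiquitin genes and their pseudogenes, so the division of reads among them is uncertain.

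Rnf26 (Entrez 213211) encodes a ubiquitin ligase of the endoplasmic reticulum membrane. Its control libraries held 37.9, 37.9, 38.4 and 37.5 CPM, and its Zac1 libraries 33.2, 33.2, 33 and 36.6 CPM. Here Zac1 library 5 was the one closest to the controls, the opposite of its place for Ubb. The means were 37.9 ± 0.399 and 34 ± 1.74 CPM (SD, n = 4), a ratio of 0.896. In GENCODE M21 the longest Rnf26 model overlaps Mfrp and C1qtnf5 on the opposite strand and the models Gm49380 and Gm20444 on the same strand. The strand setting of the counting is not given, and reads shared with models on the same strand are uncertain under any setting. Across the list of ubiquitin and conjugation genes, 42 had a mean of at least 10 CPM, with a median ratio of 0.987 against 1 over all genes open to the rule. Of these 42, 3 were lower with groups that did not overlap (Ubb, which the rule picked, among them) and 0 were higher, where over all genes open to the rule 0.702% were lower and 2.15% higher in this way. In edgeR 0 of 47 tested members of this list were called in either direction.

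Tmsb10 (Entrez 19240), the beta-thymosin that keeps actin monomers in reserve, had the lowest ratio. Its control libraries held 129.8, 140.9, 133.5 and 160.4 CPM, and its Zac1 libraries 128.7, 121.9, 123.4 and 115.2 CPM. Control library 1 and Zac1 library 1 were nearly level, and control library 5 stood highest of all. The means were 141.1 ± 13.6 and 122.3 ± 5.53 CPM (SD, n = 4), a ratio of 0.867. Tmsb10 has near-identical processed pseudogenes, so the division of its reads is uncertain. Its relative Tmsb4x, chosen after the members were known, had means of 93.2 ± 3.42 and 93.6 ± 15.1 CPM (SD, n = 4; log2 -0.01 ± 0.09, SE, edgeR adjusted p = 0.994), and its groups overlapped. Among 115 genes of the actin, tubulin and motor list with a mean of at least 10 CPM the median ratio was 0.992. With separate groups 2 were lower (0.702% over all genes open to the rule), Tmsb10, which the rule picked, among them. In this way 0 were higher (2.15%). In edgeR 0 of 147 tested genes of that list were called lower and 1 was called higher.

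Timm8b (Entrez 30057) encodes a small chaperone of the mitochondrial intermembrane space. Its control libraries held 49.1, 46.1, 47.5 and 45.6 CPM, and its Zac1 libraries 45, 41.1, 40 and 40.9 CPM. Zac1 library 1 came close to control library 5, and the other Zac1 libraries lay well below. The means were 47.1 ± 1.58 and 41.7 ± 2.2 CPM (SD, n = 4), a ratio of 0.887. Other small Tim genes, chosen after the members were known, had overlapping groups, with ratios of 0.943 for Timm9, 0.915 for Timm10, 0.914 for Timm13 and 0.960 for Timm8a1, and edgeR adjusted p values of 0.844 to 0.960. Its divergent neighbour Sdhd, a subunit of succinate dehydrogenase, stood at 126.0 ± 3.38 and 128.0 ± 8.09 CPM (SD, n = 4; edgeR adjusted p = 0.999). Timm8b overlaps Nkapd1 on the opposite strand, so some of its reads are uncertain. Of 26 mitochondrial import genes with a mean of at least 10 CPM, 20 had a ratio below 1, with a median of 0.970, where 47.2% of all genes open to the rule had one. With separate groups 2 of the 26 were lower, Timm8b among them, and 0 higher, beside 0.702% and 2.15% over all genes open to the rule. In edgeR 0 of 27 tested genes of that list were called.

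N6amt2 (Entrez 68043), the eEF1A lysine methyltransferase gene, had 22.8, 22.3, 24.6 and 21.9 CPM in the controls and 20.5, 20.6, 18.5 and 21.2 CPM with Zac1. The groups were separated by Zac1 library 5 at one edge and control library 5 at the other. The means were 22.9 ± 1.2 and 20.2 ± 1.16 CPM (SD, n = 4), a ratio of 0.884. Of the genes for eEF1A, chosen after the members were known, Eef1a1 had a ratio of 1 and Eef1a2 one of 0.941, the latter with separate groups (edgeR adjusted p = 0.984 and 0.556).

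The long noncoding RNA 1190002F15Rik, or Lockd (Entrez 381822), had 80.5, 76.3, 75.3 and 69.7 CPM in the controls and 69.5, 64.6, 65.6 and 66.6 CPM with Zac1. Control library 5 and Zac1 library 1 nearly met, with a gap between the groups of 0.241% of the control mean, the smallest among the 10. The means were 75.4 ± 4.44 and 66.6 ± 2.1 CPM (SD, n = 4), a ratio of 0.883. Its neighbour Cdkn1b, chosen after the members were known, stood at 187.0 ± 11.4 and 176.0 ± 6.63 CPM (SD, n = 4), a ratio of 0.941 with overlapping groups (edgeR adjusted p = 0.730).

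Zfp764 (Entrez 233893) lay close to the level minimum, with 10.7, 11.6, 11.5 and 11.1 CPM in the controls and 10.6, 9.96, 10.5 and 9.07 CPM with Zac1. Library 1 was almost the same in both groups, and the ratio of the means was 0.890 (11.2 ± 0.407 against 10 ± 0.682 CPM; SD, n = 4). It was the single member among 280 zinc finger genes with a mean of at least 10 CPM, in which 7 genes were higher with separate groups and Zfp764 alone was lower, beside 2.15% and 0.702% over all genes open to the rule. The median ratio of that list was 1.01, and edgeR called 6 of 437 tested genes higher and 0 lower.

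Fut10 (Entrez 171167) had 23.2, 26.4, 26.9 and 25.7 CPM in the controls and 22.4, 22.9, 22 and 21.8 CPM with Zac1. The Zac1 libraries lay close together, and control library 1 was the one control near them. The means were 25.6 ± 1.62 and 22.3 ± 0.469 CPM (SD, n = 4), a ratio of 0.871. Its longest model overlaps the pseudogene Gm8051 on the opposite strand. Other fucosyltransferase genes, chosen after the members were known, had overlapping groups and ratios of 1 for Fut11, 1.02 for Fut8, 1.07 for Pofut1 and 0.962 for Pofut2 (edgeR adjusted p = 0.827 to 0.984).

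Tmem98 (Entrez 103743) had 30.3, 28, 31.2 and 27.5 CPM in the controls and 27.1, 25.5, 26.5 and 25.9 CPM with Zac1, and its ratio of 0.897 was the nearest of all members to the limit (29.3 ± 1.77 against 26.2 ± 0.707 CPM; SD, n = 4). Control libraries 2 and 5 and Zac1 library 1 lay close to each other at the border. BC053749, or Proser3 (Entrez 333193), had 11.2, 11.2, 11.7 and 11.1 CPM in the controls and 10.7, 9.76, 10.3 and 8.41 CPM with Zac1. Its controls lay close together, and Zac1 library 5 was again the lowest. The means were 11.3 ± 0.289 and 9.81 ± 1.02 CPM (SD, n = 4), a ratio of 0.868. BC053749 overlaps Hspb6 on the opposite strand, which leaves some of its reads uncertain.

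**Figure D1:**
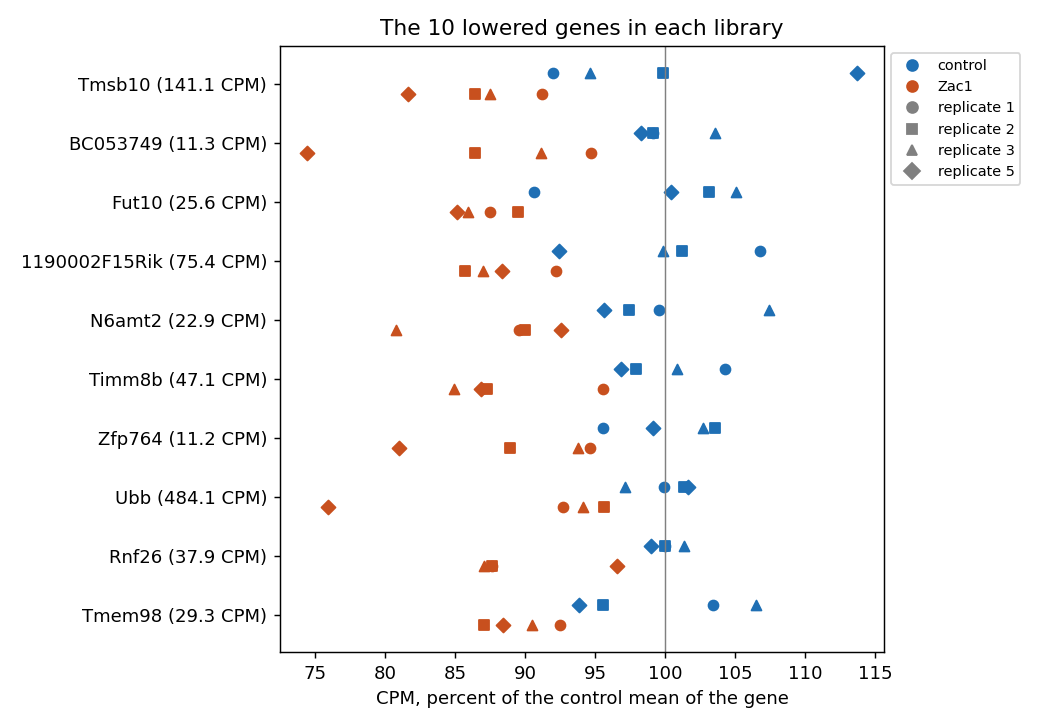
CPM of each of the 10 lowered genes in each library, as a percentage of the gene's control mean (given in brackets), with controls in blue above and Zac1 in orange below and the replicate number as the marker. The groups do not overlap in any row, as the choice of genes requires, and Zac1 library 5 is far to the left for Ubb (367.4 CPM) and BC053749 (8.41 CPM) but nearest to the controls for Rnf26 (36.6 CPM).

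Ratios ran from 0.867 to 0.897, a mean level 10.3% to 13.3% below that of the controls. Counts per library ran from 338 for BC053749 to 18761 for Ubb. Counting intervals (95%) of the ratio of pooled counts are given for their width only, since the rule itself asked for low ratios. They treat each read as a separate molecule, which libraries without molecular identifiers do not show, and so hold counting error alone. In 9 of the 10 genes they reached above 0.9, the exception being Tmsb10 (0.869, interval 0.852 to 0.887). For Zfp764 the upper bound of 0.955 was the highest, and for Ubb the interval was 0.883 to 0.902. In 5 of the 20 member groups the 4 libraries were closer together than counting error alone would give on average. These were the controls of BC053749, Zfp764 and Rnf26 and the Zac1 libraries of Fut10 and Tmem98. A rule that asks for separate groups favours genes whose libraries happen to lie close together.

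Just inside the ratio limit were Ubb (0.8958), Rnf26 (0.8963) and Tmem98 (0.8970). Just outside it were Hnrnpa0, an RNA-binding protein (0.9017), Commd6 (0.9026) and Kifc1, a mitotic kinesin (0.9069). At the level minimum the nearest members were BC053749 and Zfp764 at 10.6 CPM and N6amt2 at 21.5 CPM. Below it were C030034I22Rik at 9.99 CPM (ratio 0.8447), Ccdc39 at 5.90 CPM (0.8278) and 0610012G03Rik at 5.80 CPM (0.8677). Among the symbols left out, 1 gene met every other condition, Ndufs6, a subunit of respiratory complex I (ratio 0.8996).

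The mirror rule, with every Zac1 library above every control library and a mean at least 1.1 times the control mean, took 135 of the same 9120 genes (1.48%). With the group names exchanged in the original rule, so that the control mean was at most 0.9 times the Zac1 mean, 123 were taken (1.35%). Without the limit on the ratio, 64 genes were lower with separate groups (0.702%) and 196 were higher (2.15%). Of 132 genes with a ratio at or below 0.9, 122 had overlapping groups, while a ratio at or above 1.1 was found for 410. The 135 higher genes, with the transfected gene Plagl1 among them, had a median ratio of 1.16. Of these, 7 were at least 1.5-fold higher, Plagl1 included, so both sets consist mostly of small differences. Members had a median level of 31.8 CPM, the mirror genes 20.2 CPM and all genes open to the rule 47.5 CPM. At 100 CPM or more there were 2 members (Ubb and Tmsb10) and 9 mirror genes among 2282 genes.

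These counts depended on the scaling of the libraries and on single libraries. With library totals, 93.1% of the genes taken by either the rule or its mirror were higher, and with TMM-scaled totals 82.2% were (23 lower, among them all 10 members, and 106 higher). DESeq2 size factors gave 21 lower, again with all 10 members, and 106 higher. With Plagl1 taken out of the totals there were 8 lower, of which 7 were members, and 161 higher (95.3% higher). The members 1190002F15Rik, Rnf26 and Tmem98 were no longer taken. The highest ratio among the 10 was then 0.901. With plain totals 1190002F15Rik had a ratio of 0.883, but a gap between its groups of only 0.241% of the control mean. Without control library 1, 2, 3 or 5 the rule took 20, 42, 19 and 54 genes. It took 41, 26, 35 and 21 without Zac1 library 1, 2, 3 or 5. Fewer libraries are easier to separate, but leaving 1 out also moves the mean level and ratio, and these parts were not told apart. The mirror count was 246 without control library 2, 278 without control library 5, 240 without Zac1 library 1 and 233 without Zac1 library 5, and between 150 and 193 without each of the other libraries. The count with the groups exchanged was 216, 237, 195 and 209 without the same 4 libraries. Fut10 and Timm8b were taken in all 8 of these leave-one-out counts, Tmsb10, BC053749 and 1190002F15Rik in 7, N6amt2, Zfp764 and Ubb in 6, and Rnf26 and Tmem98 in 4.

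**Figure D2:**
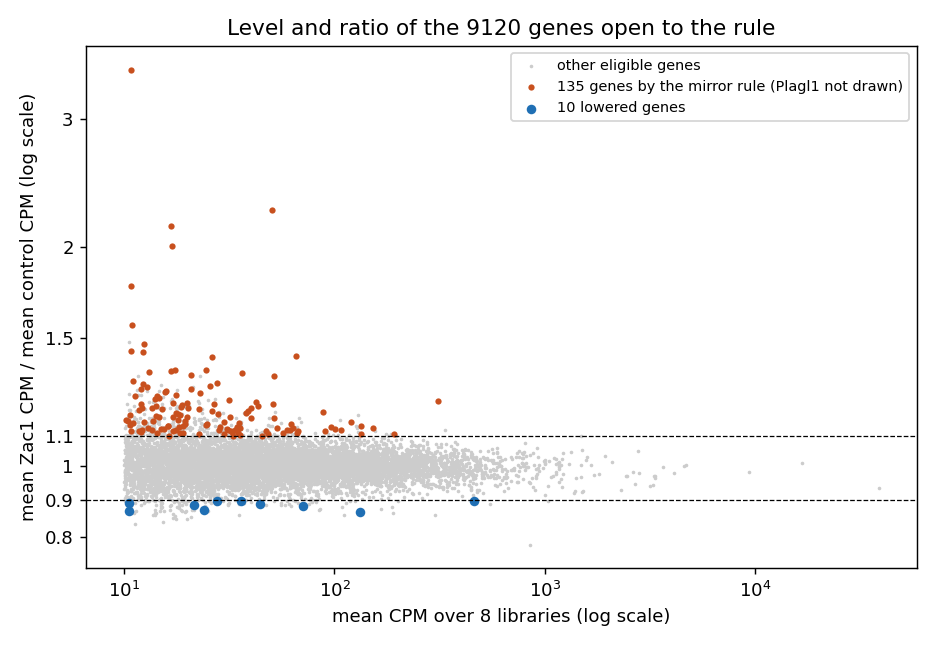
Ratio of mean Zac1 to mean control CPM against mean CPM over 8 libraries for the 9120 genes open to the rule, both on log scales, with the limits 0.9 and 1.1 dashed. The 10 lowered genes (blue) lie between 0.867 and 0.897, while the 135 genes of the mirror rule (orange, Plagl1 not drawn) reach a ratio of 3.51.

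In the fit across all genes by edgeR, 5 of 14331 tested genes were called lower at an adjusted p under 0.05 (0.0349%) and 308 higher (2.15%). Of the 10 members edgeR called 0, DESeq2 2 (1190002F15Rik and Tmsb10, among 8 genes it called lower) and limma-voom 0 (5 genes called lower). All 10 had an unadjusted p under 0.05 in edgeR. These counts reuse the contrast that chose the genes, so nothing is read from them. The log2 fold changes of the members ran from -0.22 ± 0.06 (SE) for Tmsb10 to -0.18 ± 0.06 for Tmem98. In edgeR 1 member was called without control library 5 (1190002F15Rik) and 1 without Zac1 library 5 (Rnf26). The number of genes called lower was 1 to 3 without each library other than Zac1 library 5, and 5 without that one. With the replicate number as a term in edgeR, 116 genes were called lower (0.809%) and 512 higher (3.57%). That fit called 6 of the 10 members lower, a count that the choice of genes favours in the same way.

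Variation between the replicate numbers 1, 2, 3 and 5, which both groups share, was the one comparison that the rule did not use directly. In edgeR, with the group in the model, 2090 of 14331 tested genes differed between numbers (14.6%), and 1693 of the 9120 genes open to the rule (18.6%). None of the 10 members did (0 of 10, edgeR adjusted p = 0.330 to 0.990, and 0 with an unadjusted p under 0.05). DESeq2 and limma-voom called 0 as well. The smallest value was that of Ubb (edgeR adjusted p = 0.330), which was called when control library 5 was left out (edgeR adjusted p = 0.0154). Over all genes, 1218 differed without control library 1, 1115 without Zac1 library 1 and 1008 without Zac1 library 5. Without both libraries numbered 5 the count was 339, in a fit that also had fewer libraries. Much of the variation between numbers thus involved number 5. Since separate groups require little spread within each group, this count is tied to the choice of genes. The median coefficient of variation of the members was 4.44% in the controls and 5.19% with Zac1, against 5.86% and 5.74% for all genes open to the rule.

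The members had shorter transcripts than most genes open to the rule, a property that the rule did not use directly. Length moved with the ratio over all these genes, as given below, so a limit on the ratio also bears on length. The longest annotated transcript was 518 bases for Timm8b, 690 for Tmsb10, 880 for N6amt2, 1499 for Ubb and 1633 for Tmem98. It was 2466 bases for BC053749, 2508 for Zfp764, 2833 for Rnf26 and 3527 for Fut10. All 9 members with a length in GENCODE M21 (1190002F15Rik had none) were below the median of 3726.5 bases for genes open to the rule, and their own median was 1633 bases. The mirror genes had a median of 4872.5 bases. The GC content of the members' transcripts had a median of 54.1%, against 52.6% for the mirror genes and 48.9% for genes open to the rule.

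Length moved with the ratio over the 9012 genes open to the rule that had a length. Among 211 genes open to the rule with a transcript under 1000 bases the median ratio was 0.963, and 75.4% of them had a ratio below 1. Between 1000 and 2000 bases the median ratio was 0.983, between 2000 and 4000 bases 0.998, and at 4000 bases or more 1.02, where 35.5% of the genes had a ratio below 1. The share of genes taken as members was 1.42%, 0.176%, 0.11% and 0% in these classes, and the share taken by the mirror rule was 0%, 0.528%, 1.1% and 2.19%. Of the 211 short genes, 7 were lower with separate groups and 0 were higher. The genes with a mean of at least 10 CPM that the rule leaves out by symbol had a median length of 1240 bases and a median ratio of 0.962. The part of length in the members' differences was not tested.

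**Figure D3:**
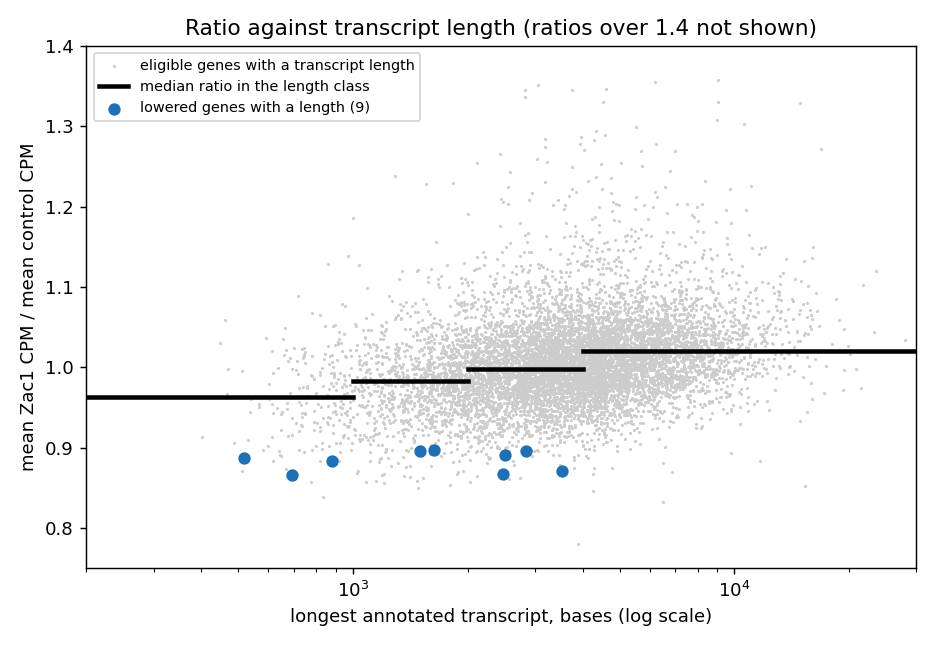
Ratio of mean Zac1 to mean control CPM against the longest annotated transcript (log scale) for genes open to the rule, with the median ratio of each length class as a black bar and the 9 lowered genes with a length in blue. The median rises from 0.963 under 1000 bases to 1.02 at 4000 bases and over, and the longest of these 9 has 3527 bases.

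Libraries of the same group also differed in this respect. Relative to each gene's mean over the 8 libraries, the median short gene stood at 1.02, 1.01, 1.07 and 0.958 in control libraries 1, 2, 3 and 5, and at 1.02, 0.951, 0.992 and 0.945 in the Zac1 libraries. The groups overlapped, and control library 5 lay among the Zac1 libraries. For genes of 4000 bases or more the values were 0.964, 1, 0.973 and 1.02 in the controls and 0.984, 1.02, 1.01 and 1.01 with Zac1, again with control library 5 among the Zac1 libraries.  Without both libraries numbered 1, 2, 3 or 5 the rule took 51, 65, 53 and 32 genes, with 9, 8, 6 and 6 of the 10 members among them.

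**Figure D4:**
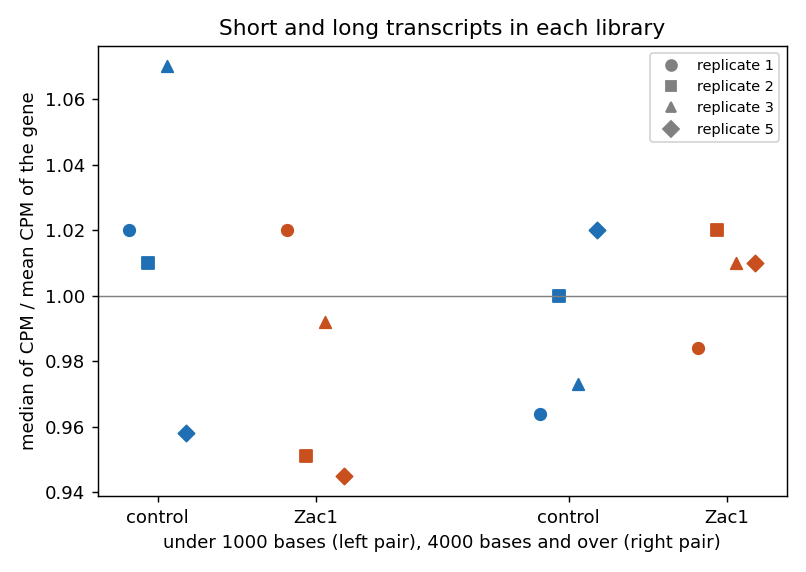
Median over genes of CPM divided by the gene's mean CPM, for transcripts under 1000 bases (left pair) and of 4000 bases and over (right pair), with controls in blue, Zac1 in orange and the replicate number as the marker. For short transcripts control library 3 is highest (1.07) and control library 5 (0.958) lies within the range of the Zac1 libraries.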

How the data were processed

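The authors deposited 1 table of raw counts per gene for 8 libraries. The submitters' processing notes name the build mm9 and the tools HTSeq 0.6.1p1, TopHat2 2.1.1, Bowtie2 2.2.8, bcl2fastq 2.17 and FastQC. Libraries came from a stranded mRNA kit, per the labels' protocols. Which annotation and strand option HTSeq used is not given in the sources used here.

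Levels are CPM on column totals, which the rule prescribes, so a gene that takes more of a library lowers the CPM of all others. Plagl1 took 0.415% to 0.582% of counts in the Zac1 libraries. The members, gene lists and genes set beside them were chosen with earlier results of these data known. Genes were named by a rule: Plagl1, members with a gene name (lowest ratio, highest level, smallest replicate-number p), and the 3 genes nearest to each limit on either side. Clone-type members, relatives of members and Lars2 fall outside it. The exchanged count swaps the group names and regroups no library.

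The fits across all genes used edgeR 4.0.16 in R 4.3.3 (filterByExpr, TMM, robust quasi-likelihood F test, Benjamini-Hochberg threshold 0.05), with the group alone or, for the joint test of the replicate numbers, group and number. Their steps were tested on simulated data. DESeq2 1.42.0 and limma 3.58.1 were alternatives. Within groups, chi-square per degree of freedom between libraries was 8.42 to 28.23, so no library was a copy. Transcript lengths, matched by Entrez ID, are those of GENCODE M21, found for 98.8% of genes open to the rule. Some genes are not reported here.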

Additional observations from a re-analysis of the deposited data

Results flagged for a closer look

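In the Zac1 group Ubb had 1 library far from the other 3: replicate 5 at 367 CPM, against 448.7 to 463 CPM. Rnf26 had 1 as well, replicate 5 at 36.6 CPM, against 33 to 33.2 CPM. The gap to the nearest library exceeded Dixon's 95% limit for 4 samples in these 2 of 20 member groups. Chance flags about 1 in 20 groups. Both lie in the same library, in opposite directions. Without Zac1 library 5 Ubb was no longer taken by the rule, since its ratio then rose above the limit, and Rnf26 was.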

How the results depend on the processing

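The number of lowered genes was 23 with TMM-scaled totals, 21 with DESeq2 size factors, 0 at a ratio limit of 0.85 and 49 at 0.95. It was 19 to 65 without 1 library or 1 replicate number. The mirror count was 207 at a mean of 5 CPM, 68 at 20 CPM, 75 at its stricter ratio limit, and 150 to 323 without 1 library or number. With the groups exchanged the count was 195 at 5 CPM, 57 at 20 CPM, 61 at a limit of 0.85, 185 at 0.95, and 131 to 277 without 1 library or number. In edgeR, lower calls numbered 1 to 5 and higher calls 204 to 357 without 1 library or number, and DESeq2 gave 8 lower. Members called numbered 2 in DESeq2 and 0 to 1 without 1 library or number. Calls between replicate numbers were 1330 in DESeq2 and 339 to 1908 without 1 library or both numbered 5, and members called between numbers 0 to 1. Leaving out both libraries of a number was chosen after seeing the data.

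Same-numbered libraries had correlated deviations of 0.291, 0.048, 0.143 and 0.292 (numbers 1, 2, 3 and 5). The highest correlation between libraries of different numbers was 0.079, above that of number 2. Of 8 libraries 7 correlated best with their own number, a hint from the data only, since the labels do not say what a number shares. With the replicate number as a block, edgeR called 116 genes lower and 512 higher. It called 6 of the 10 members lower, which the choice of genes favours. Asking only that each Zac1 library lie on one side of the control library of its number, in place of separate groups, gave replicate block counts of 74 lowered genes, 339 by the mirror rule and 275 with the groups exchanged.

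The 10 members' log2 fold changes stayed negative in all 180 alternative values (-0.28 to -0.10), and 179 moved by less than the spread between libraries. The rule took only genes with separate groups, which leaves the sign little room to change, so nothing is read from its stability. Depth limits the lowest members most: at 338 to 447 counts per library, BC053749 has a counting error of about 5.17% per control library.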

Other observations

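The lowest ratio among the 9120 genes open to the rule was that of Lars2, the mitochondrial leucyl-tRNA synthetase, chosen after its values were seen. It stood at 954 CPM in the controls and 745 CPM with Zac1 (ratio 0.7806), but its groups overlapped, so the rule did not take it. No member came from the lists of beta cell transcription factors (20 genes with a mean of at least 10 CPM, median ratio 1), insulin granule and exocytosis genes (52 genes, 0.989), the TCA cycle (24 genes, 1.01), the proteasome (45 genes, 0.978) or the mitochondrial ribosome (66 genes, 0.980). The rule took 0.110% of all genes open to it, so 0 members in lists of this size shows nothing about them. Of the insulin granule genes 1 was lower with separate groups and 0 higher, beside 0.702% and 2.15% over all genes open to the rule. Of the proteasome genes 0 were lower and 1 was higher in this way. In edgeR 1 of 67 tested insulin granule genes was called lower, where 0.0349% of all tested genes were, and 0 were called higher. In the list of G2 and mitosis genes 52 of 67 had a ratio below 1, with a median of 0.973, 2 were lower with separate groups and 0 higher, and edgeR called 0 of 70. Over all genes open to the rule 47.2% had a ratio below 1, and with separate groups 0.702% were lower and 2.15% higher. In the list of S phase and DNA replication genes 13 of 56 had a ratio below 1, with a median of 1.03, 2 were higher with separate groups and 0 lower, to be read beside the same shares, and edgeR called 0 of 57.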
